A study of Homo sapiens with 4 samples.

Results

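The guanylate-binding protein genes described here are GBP1, GBP2, GBP3, GBP4, GBP5 and GBP7, 6 of the 58302 genes listed in the deposited tables. They were taken by symbol, and the family was selected on measured values of these same libraries, because GBP1 had been called higher with doxycycline (dox). The differences between dox and no dox given for the members are therefore a description and carry no test. The libraries come from NCI-H838, a line of human non-small-cell lung cancer, in which single-cell clones carry an integrated cassette with a guide RNA against MIB1, a puromycin resistance gene and Cas9 under a dox-responsive promoter. Both groups carry this cassette, and with these groups dox, Cas9 expression and the loss of MIB1 cannot be told apart. At day 3, 2 libraries came from cells given 0.5 μg/mL dox and 2 from cells without dox. The series asks how the transcriptome changes when MIB1, which encodes the ubiquitin ligase Mind Bomb 1, is lost. The labels name neither the guide nor the clone. The study calls the replicates biological, whereas the labels do not say whether they are separate cultures, so the p-values measure only the spread between these libraries.

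Guanylate-binding proteins are large GTPases that are strongly induced by interferon-gamma in many cell types. They act in cell-autonomous defence: they bind to vacuoles that hold microbes and to the surface of bacteria in the cytosol, and they help to activate inflammasomes. GBP1, GBP2 and GBP5 end in a motif to which an isoprenoid lipid is attached, through which they anchor to membranes, whereas the other members lack it. Interferon-gamma reaches these genes through its receptor and the kinases JAK1 and JAK2, and the response acts at GAS elements and, through IRF1, at interferon-stimulated response elements (ISRE).

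All 6 genes lie on the minus strand of chromosome 1 (GRCh38, GENCODE positions counted from 1), within 266 kilobases from 89006679 to 89272860. In the order of the chromosome these are GBP3 (89006679 to 89022894), GBP1 (89051882 to 89065360), GBP2 (89106132 to 89150456), GBP7 (89131742 to 89176009), GBP4 (89181144 to 89198942) and GBP5 (89256189 to 89272860). GBP6 and the pseudogene GBP1P1 follow on the plus strand. The annotated spans of GBP2 and GBP7 overlap by 18715 bases, and 621 exon bases are common to both on the same strand. Reads of the members can also fit more than 1 gene. The study's reads were aligned with up to 2 mismatches per 50 bases. Of the 50-base windows of the annotated transcripts of GBP7, 632 of 2428 occurred letter for letter in a transcript of another gene, 573 of them in GBP2. The exon bases that GBP2 and GBP7 have in common give identical windows, so that count does not by itself show likeness between separate sequences. The share of such windows was 7.76% for GBP1, 8.82% for GBP2, 4.78% for GBP3, 6.52% for GBP4 and 2.49% for GBP5. Of the 402 such windows of GBP4, 5 were in GBP2 and 19 in GBP7, and those of GBP5 were all outside the family. With 2 mismatches allowed within the family, it was 23.3% for GBP1, 21.7% for GBP3 and 37.7% for GBP7. For GBP3, 894 of its 4605 windows were that close to GBP1. How the counting treated reads that fit more than one gene is not given in the sources used here. The values of GBP7 in particular, and also those of GBP3, are therefore uncertain.

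Promoter sequences from RefSeq (GRCh38.p14) were matched for 4 of the 6 members, GBP1, GBP3, GBP4 and GBP7. The ISRE core was searched as GAAA, any 2 bases, GAAA, on both strands from 250 bases before to 50 bases after the RefSeq start. It was found in 3 of the 4 promoters, GBP1, GBP3 and GBP4, whereas 3.57% of 35116 human promoters held it. The lines below show the 30 bases ending with the match, on the strand of the gene, because GBP1 and GBP3, which were higher with dox, and GBP4, which was nearly silent, all have it. Capitals mark the match, which reads as the reverse complement of the core.
GBP1, chr1:89065326-89065355, minus strand: cagtgatttgaacgaagtacTTTCAGTTTC
GBP3, chr1:89022855-89022884, minus strand: cacttccttgaaagaagtacTTTCAGTTTC
GBP4, chr1:89198937-89198966, minus strand: tccccacaaagtgcatgtccTTTCAATTTC
The GBP1 and GBP3 stretches were identical at 25 of 30 positions, and their 10 matched bases were the same. Measured from the RefSeq start, the last base of the match lay 118 bases before it in GBP1, 12 bases into the transcript in GBP3 and 6 bases into it in GBP4. These distances depend on the start used. The GENCODE spans reach up to 89065360 for GBP1 and 89022894 for GBP3, so by them both matches lie inside the gene. The GBP4 match crosses the limit of its span, 89198942. The GBP3 stretch also held the only match to the GAS letters TTCNNNGAA among the 4 promoters, a match found in 7.66% of all promoters. None of the 4 held GGCGCC, the GC-rich box bound by SMAD1 and SMAD5, which 19.2% of all promoters held. A match is a string of letters and not a measured binding site.

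The GBP7 promoter held none of these 3 strings, but it shared a longer stretch with GBP1. The next lines show that stretch with the bases of GBP3 aligned to it, because GBP7 is the expressed member whose groups overlapped in these libraries.
GBP1, chr1:89065364-89065433, minus strand: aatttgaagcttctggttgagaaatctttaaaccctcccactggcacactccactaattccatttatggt
GBP3, chr1:89022892-89022951, minus strand: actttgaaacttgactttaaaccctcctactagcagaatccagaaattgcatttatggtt
GBP7, chr1:89176180-89176253, minus strand: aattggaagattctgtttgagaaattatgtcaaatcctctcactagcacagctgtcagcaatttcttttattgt
The GBP1 and GBP7 stretches were identical in 75.7% of 74 aligned columns, GBP1 and GBP3 in 70.4% of 71, and GBP3 and GBP7 in 61.3% of 75. The limits of the stretch were set by the best local alignment of GBP1 with GBP7, so these values do not rank the likeness of the promoters. The best local alignment of GBP1 with GBP3 was longer, with 79 of 107 columns identical (73.8%). In GBP1 the stretch ends 156 bases before the RefSeq start and is followed by the ISRE core shown above. In GBP7 it ends 177 bases before the RefSeq start, with no core in the searched window. These distances also depend on the start used. The GENCODE span of GBP1 reaches up to 89065360, next to the stretch, whereas that of GBP7 reaches up to 89176009, further from its stretch. The windows searched may therefore cover unlike regions of the members.

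The reads counted in genes came to between 15943025 and 24398411 per library, fewer in both dox libraries. The limit that a count of 0 allows is 3 reads, or between 0.123 and 0.188 CPM, which are reads scaled to a common total. Such limits cover counting error only. With 2 libraries against 2, the smallest two-sided p of an exact permutation test is 0.333, so adjusted p-values are from limma on voom-weighted counts, fitted over 16181 genes. MIB1 fell from 598 and 588 reads to 90 and 59, as the labels say, with a log2 fold change of -2.58 ± 0.23 (limma, SE, adjusted p = 0.000375). Of 6 epithelial markers, EPCAM, KRT7, KRT8, KRT18 and CDH1 were expressed and KRT19 had no reads. Of 5 lung lineage markers, NKX2-1, SFTPB and SCGB1A1 had no reads, and NAPSA and SFTPC had at most 8. PTPRC, the defining marker of leukocytes, had no reads in any library, and the summed level of 6 immune markers was 8.65 to 10.04 CPM without dox and 9.41 to 10.4 CPM with dox. The 4 endothelial markers summed to at most 0.779 CPM, with KDR at 0. The 4 fibroblast markers summed to 3.77 to 4.29 CPM without dox and 1.69 to 4.99 CPM with dox, with COL1A2 at 0. The part of these in the results was not tested.

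GBP2 was the most abundant member in every library and GBP1 came second. GBP1, the prototype of the family, which forms coats on bacteria, had 327 and 328 reads in no dox replicates 1 and 2, and 428 and 659 in dox replicates 1 and 2. Its RPKM, the reads scaled by gene length and depth, came to 4.59 and 4.94 in no dox, and to 9.25 and 11.98 in dox. Both dox libraries lay above both no dox libraries, and dox replicate 2 was the highest. The ratio of the group means was 2.23 in RPKM. The log2 fold change was 1.18 ± 0.16 (SE). In bulk RNA, more RNA per cell and more cells that express the gene cannot be told apart.

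GBP2, which is lipidated like GBP1 and joins it on bacteria, had 1533 and 1426 reads in no dox and 1448 and 2082 in dox. Because the dox libraries had smaller count totals, these correspond to 29.39 and 29.35 RPKM without dox and 42.8 and 51.7 RPKM with dox. The no dox libraries were nearly equal, and both dox libraries were higher. The ratio of the mean RPKM was 1.61, and the log2 fold change was 0.73 ± 0.13 (SE).

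GBP5, the third lipidated member, was nearly silent, at 2 and 0 reads in no dox and 1 and 3 in dox. No library exceeded the limit that a count of 0 allows, and no fold is given.

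GBP3, which lacks the lipid motif and is recruited to bacteria by GBP1, was read 83 and 89 times in no dox and 129 and 133 times in dox. In RPKM it stood at 1.15 and 1.33 in no dox against 2.76 and 2.39 in dox. The groups did not overlap, and for this member dox replicate 1 was the higher in RPKM, unlike for GBP1 and GBP2. The ratio of the mean RPKM was 2.08, with a log2 fold change of 1.05 ± 0.23 (SE). This fold was past 2, with a larger SE and fewer reads than for GBP1. Part of the GBP3 sequence is close to GBP1, as given above. Whether the difference in GBP3 is separate from that in GBP1 was not tested.

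GBP7 was at a lower level, with 57 and 29 reads in no dox against 25 and 19 in dox. This is 0.989 and 0.540 RPKM in no dox, and 0.668 and 0.427 RPKM in dox. Dox replicate 1 lay between the no dox libraries, so the groups overlapped. The log2 fold change was -0.52 ± 0.41 (SE), little more than its error, and the no dox libraries differed from each other by more than the group means did. GBP4 had no reads in 3 libraries and 1 read in dox replicate 2. Of the family's loci that are not members, GBP6 had no reads, and GBP1P1 had 4 to 7 reads per library.

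**Figure D1:**
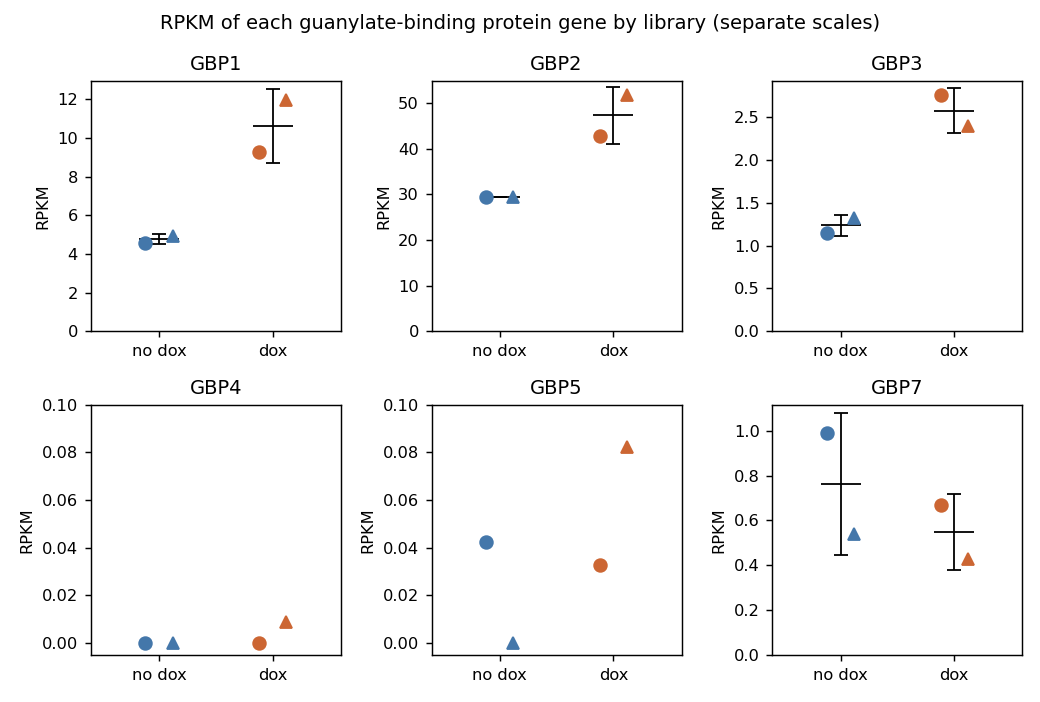
RPKM of the 6 members in each library, without dox (blue) and with dox (orange), with circles for replicate 1 and triangles for replicate 2. Horizontal lines are group means with SD (n = 2), not drawn for GBP4 and GBP5, which had at most 3 reads per library, and each panel has its own linear axis. GBP1, GBP2 and GBP3 are higher in both dox libraries, and the groups overlap for GBP7.

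The call rule was an adjusted p of at most 0.05 with a change of at least 2-fold. Of the 6 members, 4 had enough reads to enter the fit, and GBP4 and GBP5 did not. GBP1 was called and GBP2, GBP3 and GBP7 were not. Over all genes 6 of 16181 were called (0.0371%), 4 of them higher with dox (0.0247%). Since this contrast led to the choice of the family, nothing is read from the comparison of these shares. The same holds for the groups in CPM, which did not overlap for GBP1, GBP2 and GBP3, with dox higher, as for 18.7% of all genes tested.

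When 1 library was left out, the log2 fold change of GBP1 ranged from 0.99, without dox replicate 2, to 1.37, without dox replicate 1. That of GBP2 ranged from 0.56 to 0.88 with the same libraries at its ends. GBP3 moved less, from 0.95 to 1.16. GBP7 ranged from -0.90 without no dox replicate 2 to -0.09 without no dox replicate 1, so its size rested on which no dox library was used. No member changed its sign. GBP1 was called in none of these 4 fits, in which 1 group holds a single library that is assumed to vary like the other group.

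**Figure D2:**
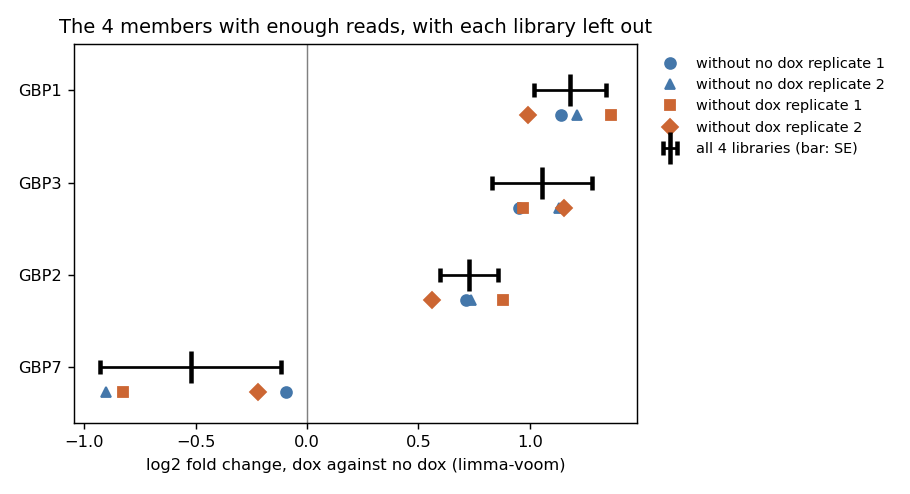
Log2 fold change of GBP1, GBP3, GBP2 and GBP7 with dox against no dox (x axis, limma-voom); black bars are the estimate ± SE from all 4 libraries, and symbols below them are the estimates with 1 library left out. The estimates of GBP1, GBP2 and GBP3 stay above 0.5, and those of GBP7 spread from -0.90 to -0.09.

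The family as a whole took 2002 and 1872 reads in no dox and 2031 and 2897 in dox, or 82.05 and 88.3 CPM against 127.4 and 169.9 CPM. The mean was 85.2 ± 4.40 CPM without dox and 148.7 ± 30.1 with dox (SD, n = 2 each), a ratio of 1.75. The dox libraries lay apart from the no dox libraries, and dox replicate 2 was the highest. Without GBP1 the ratio was 1.64. That remainder was mainly GBP2 (62.83 of 68.65 CPM in no dox replicate 1, and 122.1 of 131.3 in dox replicate 2), whose own CPM ratio was 1.637. Leaving out dox replicate 2 gave a ratio of 1.496 for the whole family, and leaving out dox replicate 1 gave 1.995.

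The shares of the members in the family's reads are a description, since the rise of GBP1 in these same libraries led to the choice of the family. GBP1 gave 16.3% of the family's reads in no dox replicate 1 (95% Wilson interval 14.78 to 18.02) and 17.5% in no dox replicate 2 (15.9 to 19.3), against 21.1% (19.4 to 22.9) and 22.7% (21.3 to 24.3) in dox replicates 1 and 2. These intervals cover counting error only. They treat single reads as units, so no test between the groups is read from them. The interval of dox replicate 1 only just cleared that of no dox replicate 2. The mean share of GBP1 was higher by 4.98 percentage points. GBP2 gave 76.6% and 76.2% in no dox, and 71.3% and 71.9% in dox, a mean difference of -4.79 points. Thus GBP2 had a higher CPM with dox and a smaller part of the family. The share of GBP3 was 4.15% and 4.75% in no dox, and 6.35% and 4.59% in dox, and the groups overlapped. GBP7 gave 2.85% and 1.55% without dox and 1.23% and 0.656% with dox. The dox shares were both lower, but the intervals of no dox replicate 2 (1.08 to 2.22) and dox replicate 1 (0.835 to 1.81) overlapped. GBP4 and GBP5 each gave at most 0.104% of the reads. In RPKM, which sets the genes on a common length, GBP1 took 13.2 ± 0.693% without dox and 17.3 ± 0.926% with dox (SD, n = 2 each), and GBP2 took 81.2 ± 0.0707% and 77.4 ± 0.389%.

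**Figure D3:**
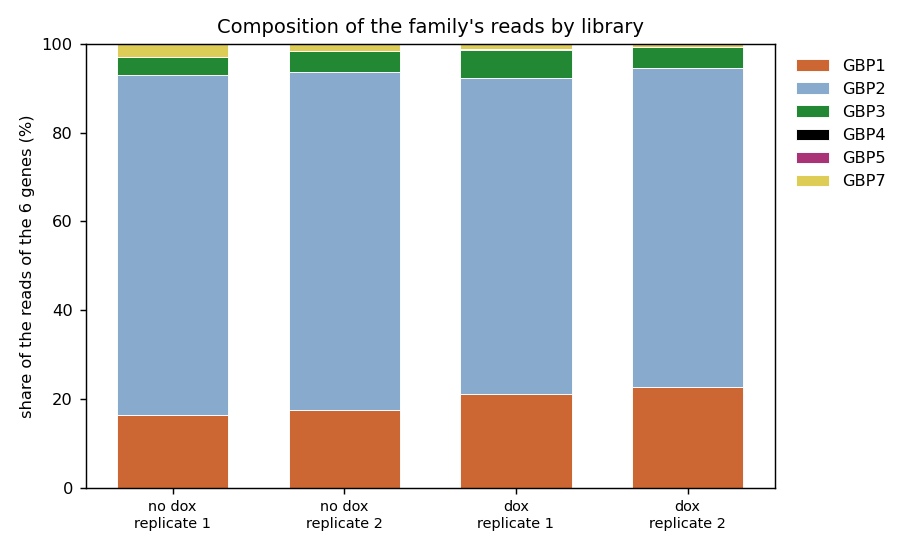
Share of the reads of the 6 genes (y axis, %) given by each member in each library. GBP2 is the largest part throughout, and the part of GBP1 is 16.3% and 17.5% without dox and 21.1% and 22.7% with dox; GBP4 and GBP5 are too small to see.

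Compared per length, the order of the levels was GBP2, GBP1, GBP3, GBP7, then GBP5 and GBP4, in both groups. The mean RPKM of GBP2 was 6.17 times that of GBP1 without dox and 4.45 times with dox. GBP1 stood at 3.84 and 4.12 times GBP3. GBP3 and GBP7 were close without dox, at a ratio of 1.62, and apart with dox, at 4.70. In no dox the lowest GBP3 library, 1.15 RPKM, was just above the highest GBP7 library, 0.989 RPKM, whereas GBP5 and GBP4 could not be told apart at this depth.

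The other genes of the interferon pathway were read from lists by role, and none of their members was called. The 8 interferon ligands listed, among them IFNG, IFNB1 and IFNE, had no reads except a single IFNL1 read in no dox replicate 2. Their transcripts were not detectable at this depth. All 8 receptors and kinases were expressed, with a median log2 fold change of 0.04 beside -0.0004 over all genes tested. The groups did not overlap in CPM for 4 of the 8 with dox higher, beside 18.7% of all genes, and for 1 with dox lower, beside 17.4%. The most abundant were IFNGR1, at 0.02 ± 0.11 (SE, limma adjusted p = 0.974), and IFNGR2, at 0.05 ± 0.11, the chains of the interferon-gamma receptor. IFNAR1, a chain of the type I receptor, was at 0.13 ± 0.11. The largest values were those of the kinase TYK2, 0.20 ± 0.13, and of IFNLR1, -0.17 ± 0.22.

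Of 11 transcription factors of GBP genes, 9 were tested, with a median of 0.16 and 7 above 0. STAT3 and RELA, the p65 subunit of NF-κB, were both at 0.13. IRF2, a factor that competes with IRF1 at ISREs, was at 0.33 ± 0.16. IRF9, a DNA-binding factor of the type I response, was at -0.37 ± 0.46 on 10 to 21 reads. Of 6 inhibitors of the response, 5 were tested, with a median of -0.03. The cytokine-signalling suppressor SOCS3 was at 0.30 ± 0.13 (limma adjusted p = 0.518), the phosphatase PTPN2 at -0.03 ± 0.13, PIAS1 at 0.00 and the ISG15 protease USP18 at -0.53 ± 0.34.

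The interferon-gamma target genes showed the highest median among the lists with more than 1 gene tested. Of 20 targets, 14 had enough reads, 13 of these were above 0, and their median log2 fold change was 0.29, whereas 49.9% of all genes tested were above 0. No target was called, and the lowest adjusted p was 0.167 (limma). That was PSMB9, a subunit of the immunoproteasome, with 49.6 and 48.1 RPKM without dox and 75.4 and 65.1 RPKM with dox, at 0.56 ± 0.12 (SE). The groups did not overlap in CPM for 7 of the 14, all higher with dox, beside the 18.7% of all genes. This was also so for 4 of the 8 receptors and kinases, whose median was 0.04, so it is not particular to the targets. UBE2L6, the conjugating enzyme for ISG15, had a log2 fold change of 0.29 ± 0.11. ICAM1, an adhesion molecule, was at 0.30 ± 0.14, and APOL1, an apolipoprotein that lyses trypanosomes, at 0.61 ± 0.32 on 39 to 66 reads. WARS1, the tryptophanyl-tRNA synthetase, was at 0.01 ± 0.12. CXCL9, CXCL11, IDO1 and CIITA, which typically accompany a strong interferon-gamma response, had at most 5 reads in any library, whereas CXCL10 had 71 to 103. The median of the targets stayed between 0.16 and 0.40 under the alternatives tried.

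Of 19 type I interferon targets, 12 were tested, 10 of them above 0, with a median of 0.13 and none called. IFI6, which protects cells from apoptosis, was at 0.50 ± 0.13 (SE, limma adjusted p = 0.251), and IFIT2, which inhibits translation, at 0.64 ± 0.29 on 44 to 57 reads. IFI35 was at -0.01 ± 0.13, the ubiquitin-like modifier ISG15 at 0.11 ± 0.14, and OASL at 0.51 ± 0.49. IFI44, RSAD2 and XAF1 had no reads. The groups did not overlap in CPM for 3 of the 12 with dox higher, beside 18.7% of all genes, and for 1 with dox lower, beside 17.4%. Among other interferon-inducible large GTPases only MX1, the dynamin-like antiviral protein, had enough reads, 46 and 56 in no dox and 79 and 68 in dox. It stood at 0.96 ± 0.29 (SE, limma adjusted p = 0.311), close to GBP3. MX2, IRGM and the pseudogene GVINP1 had at most 6 reads.

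**Figure D4:**
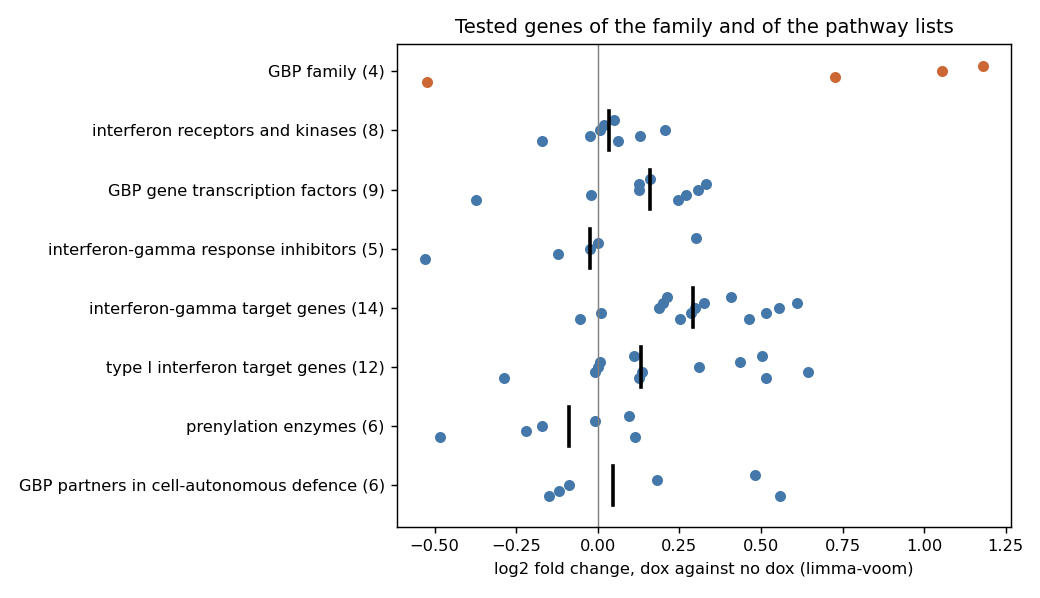
Log2 fold change with dox against no dox (x axis, limma-voom) of each gene tested in the family (orange) and in 7 lists (blue), 1 point per gene, with the number of genes in brackets and a black line at the median of each list. The points of the interferon-gamma targets lie mostly above 0, around 0.29, and below those of GBP1, GBP2 and GBP3.

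The atlastins, GTPases of the endoplasmic reticulum that are related to the guanylate-binding proteins and are not induced by interferon, lay at -0.06 ± 0.13 for ATL1, -0.09 ± 0.11 for ATL2 and -0.10 ± 0.11 for ATL3 (SE). The 6 enzymes that attach and process the lipid had a median of -0.09, with none called. FNTA, the subunit common to both protein prenyltransferases, was at 0.11 ± 0.11, FNTB at -0.22 ± 0.21 and the methyltransferase ICMT at -0.17 ± 0.12. ZMPSTE24, a protease that trims prenylated proteins, had 72.8 and 66.2 RPKM without dox and 51.3 and 46.8 RPKM with dox, at -0.48 ± 0.11 (SE, limma adjusted p = 0.167).

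Of 9 partners of these proteins in cell-autonomous defence, 6 were tested, with a median of 0.05 and none called. CASP4, the caspase that senses lipopolysaccharide on bacteria coated by GBP1, had 1450 and 1191 reads in no dox and 1365 and 1276 in dox, at 0.48 ± 0.13 (SE, limma adjusted p = 0.278). PIM1, a kinase that phosphorylates GBP1, was at 0.56 ± 0.20 (adjusted p = 0.383), and SFN, the 14-3-3 protein that holds phosphorylated GBP1 in the cytosol, at -0.09 ± 0.14. GSDMD, the pore-forming substrate of CASP4, was at -0.12 ± 0.15. The inflammasome sensors AIM2 and NLRP3 had no reads.

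The genes on either side of the cluster did not share the values of GBP1, GBP2 and GBP3. All 8 neighbours were tested, none was called, 2 were above 0 and the median was -0.12. KYAT3 and RBMXL1, the nearest neighbours on the GBP3 side, were at -0.04 ± 0.11 and -0.19 ± 0.11 (SE), and PKN2 and GTF2B beyond them at -0.08 ± 0.10 and 0.08 ± 0.11. On the other side ZNF326, a zinc-finger gene, had the largest value, -0.73 ± 0.19 (limma adjusted p = 0.228), on 270 and 263 reads in no dox and 110 and 121 in dox. Within the cluster, GBP7, which overlaps GBP2, and the nearly silent GBP4 and GBP5 lie on the side of GBP2 away from GBP1.

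**Figure D5:**
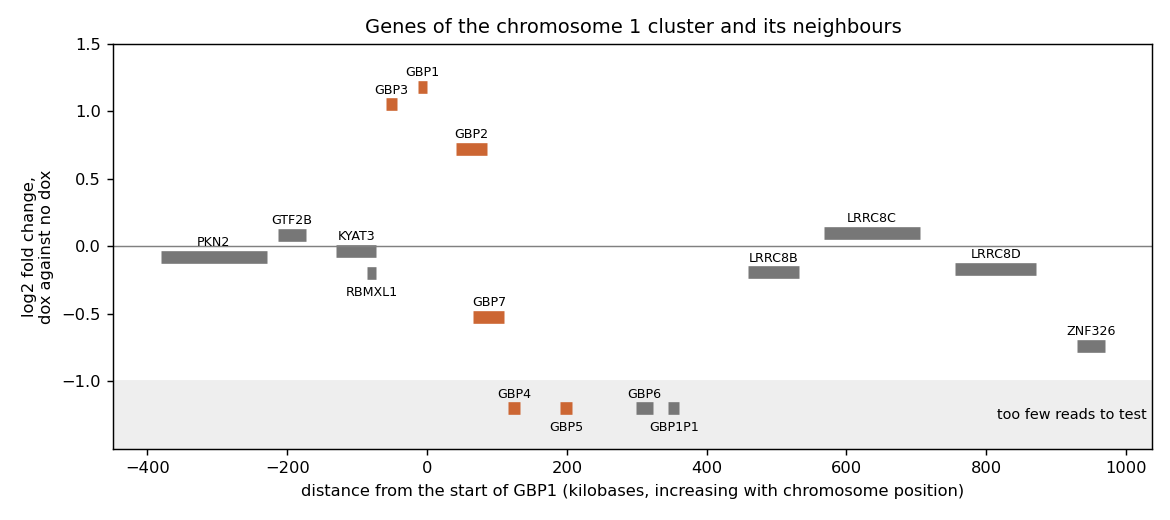
Log2 fold change with dox against no dox (y axis, limma-voom) of the members (orange) and of other genes nearby (grey), each drawn as a bar over its annotated span, against the distance from the start of GBP1 in kilobases (x axis). GBP4, GBP5, GBP6 and GBP1P1, in the shaded band, had too few reads to be tested and have no value; GBP1, GBP2 and GBP3 stand above the neighbours, which lie between -0.73 and 0.10.

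The genes whose pattern over the 4 libraries was most like that of GBP1 were found by the Euclidean distance between log2 CPM values centred on each gene's own mean, among 12343 genes with a mean of at least 50 reads. They were LAT2 (distance 0.15), which encodes a membrane adaptor, with 46 and 46 reads in no dox and 53 and 90 in dox, the unnamed gene ENSG00000213560 (0.20) and TCIM (0.21). GBP3 stood at rank 24 (0.42) and GBP2 at rank 40 (0.48) of this order, both with a smaller spread between the groups than GBP1. For the summed reads of the 6 genes, the nearest were SMARCD3 (0.086), SLC29A4 (0.12) and STK19 (0.14). These distances are over 4 libraries only, and LAT2, like GBP1, was highest in dox replicate 2.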

How the data were processed

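The RNA-seq tables of NCI-H838 MIB1-iKO cells were analysed for 2 libraries without dox and 2 with dox, grouped by their labels. Per the study's methods, the authors removed ribosomal reads and aligned the rest to GRCh38 with GSNAP; the submitters' processing notes also name limma. The deposited counts are whole, unnormalized reads per gene. The deposited RPKM values were scaled by the authors for gene length and depth, with a library scaling that is not that of the total counts alone. The methods name RefSeq models, whereas the tables hold Ensembl identifiers. The strand setting and the kit of these libraries are not given in the sources used here, so antisense overlaps are uncertain. Symbols and positions are from GENCODE, with a symbol for 57532 of 58302 identifiers.

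Genes were kept by filterByExpr (16181 genes), and the counts were quantile normalized, weighted with voom and fitted with limma 3.58.1 in R 4.3.3, after the study's methods. Calls needed a 2-fold change at a Benjamini-Hochberg adjusted p of 0.05 or less. The fit was tested on simulated data. Alternatives were edgeR 4.0.16 (quasi-likelihood), DESeq2 1.42.0, voom with TMM or library size only, other filters and thresholds, limma on log2(RPKM + 0.1) and log2(RPKM + 1), a replicate block, and each library left out. Wilson intervals were computed with scipy 1.17.1.

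The members and lists were chosen with earlier results of these data known. Named are the members, GBP6, GBP1P1 and MIB1, and from each list the called genes, the 3 with the most reads and the 2 with the largest change. Genes named only for having few or no reads, CXCL10 beside them, and the markers were chosen after their values were seen. A median over the tested members was planned and is not reported, since the filter and the choice of members shape it. A gene of the transcription factor list is counted there and not reported here by name.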

Additional observations from a re-analysis of the deposited data

How the results depend on the processing

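The sum of the family, the share of GBP1 and the fold change of each tested member kept their direction under the alternatives tried, in which GBP7 could not be fitted with a mean of at least 50 reads. GBP1 was called with edgeR, DESeq2, voom with TMM or library size only and a mean of at least 50 reads. With no count filter and with log2(RPKM + 0.1) and log2(RPKM + 1), 0 members and 0 genes were called (limma; 2092, 1442 and 1438 genes at an unadjusted p under 0.05). There GBP1 had log2 fold changes of 1.18, 1.13 and 1.00, and MIB1 of -2.58, -2.33 and -1.34. Leaving out 1 library gave 0 to 0 genes and 0 to 0 members called (limma; 833 to 1042 genes at an unadjusted p under 0.05), with GBP1 at 0.99 to 1.37 and MIB1 at -2.998 to -2.16. A single library then stands for a group. With no fold threshold, 11 genes passed in place of 6, and GBP1 was the only member among them. The cause of these changes was not tested.

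With the replicate number as a replicate block, which leaves 1 residual degree of freedom, 78 genes and 2 members were called, GBP1 and GBP3, the latter at 1.055. Over the 16181 genes kept, the deviations of replicate 1 from its group mean correlated at 0.144 between the groups. With 2 libraries a group, those of replicate 2 mirror them. The labels do not say what the numbers share, so the pairing was not used.

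Of 25 interferon genes named by the rule above, 9 changed sign, of which all but OASL (0.51) lay between -0.03 and 0.13. With 1 library left out, their lowest and highest values were -0.029 and 0.076 for IFNGR1, -0.013 and 0.27 for STAT3, -0.023 and 0.27 for RELA (which was also at -6.2e-05), -0.14 and 0.095 for PTPN2, -0.16 and 0.15 for PIAS1, -0.098 and 0.11 for WARS1, -0.13 and 0.12 for IFI35, -0.081 and 0.30 for ISG15, and -0.088 and 1.06 for OASL. PIAS1 was at 0.0016 with the replicate block. WARS1 was at -0.0029 with edgeR, -0.0040 with voom and TMM, -0.0088 with log2(RPKM + 0.1) and -0.0087 with log2(RPKM + 1).

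Depth limits GBP4 and GBP5, which cannot be compared between the groups, and GBP7, which rested on 19 to 57 reads and shares sequence with GBP2.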
